A study of Mus musculus with 4 samples.

Results

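Defensins are small cationic peptides, held together by disulfide bonds, that kill microbes by disrupting their membranes. In the mouse the alpha defensins, also called cryptdins, are secreted by the Paneth cells at the base of the small intestinal crypts. The beta defensins are made by many epithelia, with a large group of them expressed in the male reproductive tract. Both families grew by tandem duplication, so that neighboring genes are often near copies of each other. The genes described here are the protein-coding genes of chromosomes 1 to 19 in the GENCODE vM21 annotation of mm10 whose symbol is Defa or Defb followed by digits. This gave 64 genes, 22 alpha and 42 beta, of 20807 protein-coding genes in all.

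Replication timing was measured by Repli-seq in F121-9 mESCs, an untreated diploid hybrid cas/129 mouse embryonic stem cell line grown in N2B27+2i+LIF. After a BrdU pulse, cells of early and of late S-phase were collected separately by sorting and their BrdU-containing DNA was sequenced, giving 2 early and 2 late libraries. The deposited profile combines the 4 libraries in a single number for each 50 kb bin, called RT, which is the log2 ratio of early to late reads after conversion to RPM. Bins with RT above 0 are called early and bins with RT below 0 late.

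Since the replicates were already combined, RT values come without a replicate error, and the number of reads behind a bin is unknown. Comparisons are therefore given as counts, medians and ranges with no test. The scatter of single bins was instead estimated from 6935 autosomal bins in stretches of nearly constant RT, by setting each bin against the average of both adjacent bins, and came to an SD of 0.16 log2 for 1 bin. Variation between cultures is not part of this noise SD. RT is a property of DNA and carries no expression level, so the cell type label could not be checked against expressed markers. The 7 pluripotency genes listed for this purpose, among them Pou5f1 and Nanog, had RT between 2.52 and 3.51.

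The 64 gene starts lay in 35 bins, up to 4 in the same bin, and genes that share a bin share its RT. Joining starts at most 1 Mb apart gave 5 clusters on 4 chromosomes. The chromosome 8 proximal cluster, nearer the centromere, held 14 beta defensins from Defb40 to Defb7. The chromosome 8 distal cluster held Defb33, all 22 alpha defensins and 9 further beta defensins from Defb1 to Defb13. Chromosome 2 held 11 beta defensins, chromosome 14 held 5, and chromosome 1 held Defb18 and Defb41.

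The windows of 50 bases directly upstream of selected gene starts include stretches that tandem copies share and others that are unique, and were selected to show both, so they do not stand for the families as a whole. They are written 5′ to 3′ on the strand of the gene, from the RefSeq GRCm38.p6 sequence, with the TATA box motif TATAAA in capitals where a search on that strand found it. The first set holds alpha defensins of the chromosome 8 distal cluster.
Defa21: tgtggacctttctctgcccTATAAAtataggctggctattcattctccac
Defa22: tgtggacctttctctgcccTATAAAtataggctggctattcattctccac
Defa20: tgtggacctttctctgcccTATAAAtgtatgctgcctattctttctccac
Defa24: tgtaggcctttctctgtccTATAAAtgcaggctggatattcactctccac
Defa35: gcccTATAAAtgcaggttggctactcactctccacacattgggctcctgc
Defa36: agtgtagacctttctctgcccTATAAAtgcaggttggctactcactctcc

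The windows of Defa21 (chr8:21025495-21025544, plus strand) and Defa22 (chr8:21162227-21162276, plus strand) were identical, and this stretch occurred 2 times in the reference genome. The window of Defa20 (chr8:21509208-21509257, plus strand) was shared with Defa32 and occurred 4 times. Those of Defa24 (chr8:21734444-21734493, plus strand) and Defa36 (chr8:21427361-21427410, plus strand) occurred 3 times each, and that of Defa35 (chr8:21064988-21065037, plus strand) once. Across the 22 alpha defensins, 18 had a window that occurred more than once, up to 7 times. Compared base by base without gaps, so that displaced copies count as different, the alpha windows held 18 different sequences with a median identity between pairs of 32%. The second set holds beta defensins of chromosomes 8, 14 and 1.
Defb3: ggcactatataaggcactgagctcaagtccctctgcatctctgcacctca
Defb8: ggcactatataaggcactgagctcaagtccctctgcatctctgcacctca
Defb4: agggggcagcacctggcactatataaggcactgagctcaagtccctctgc
Defb14: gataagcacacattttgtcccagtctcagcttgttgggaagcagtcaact
Defb1: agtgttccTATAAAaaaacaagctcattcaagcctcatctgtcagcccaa
Defb42: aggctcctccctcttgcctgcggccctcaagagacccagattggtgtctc
Defb41: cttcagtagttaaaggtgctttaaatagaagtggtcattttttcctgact

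Defb3 (chr8:19293310-19293359, plus strand) and Defb8 (chr8:19447607-19447656, minus strand) had the same window, which occurred 6 times in the genome. Most of the window of Defb4 (chr8:19198656-19198705, plus strand) is the same stretch, displaced along the sequence, and it occurred 2 times. The windows of Defb14 (chr8:19194307-19194356, plus strand), Defb1 (chr8:21776549-21776598, plus strand), Defb42 (chr14:63046941-63046990, plus strand) and Defb41 (chr1:18265139-18265188, minus strand) occurred once each. Of the 42 beta defensins 6 had a window that occurred more than once. The beta windows held 41 different sequences with a median identity of 26%. TATAAA was found on the gene's strand in 13 of 22 alpha windows and 5 of 42 beta windows, compared with 3.31% of the same windows upstream of all 20807 protein-coding genes. On either strand the counts were the same for the defensins and the share of all genes was 4.03%. A match describes letters only.

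RT was available for 62 of the 64 gene starts. Of these, 40 were late and 22 early, and the late share was 64.5% (exact binomial 95% interval 51.3% to 76.3%, which covers the counting of genes only and treats genes that share bins as separate). Among all 20732 protein-coding gene starts with a value 25.9% were late and 74.1% early, and on chromosome 8 alone 18.7% were late. Of all autosomal bins 57.9% were late. The median RT of the defensin gene starts was -1.13, with quartiles of -2.81 and 2.18, beside a median of 2.35 over all protein-coding gene starts. It was -2.04 with each bin counted once, and 0.18 in bins where at least 50% of the 50-base windows occur once in the reference genome. At or below RT -2 there were 27 of 62 defensin gene starts, beside 12.7% of all protein-coding gene starts.

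The alpha and beta families had different ranges. All 20 alpha defensin gene starts with a value were late, with a median RT of -3.07 and a range from -4.65 to -2.03. The 42 beta defensin gene starts divided into 20 late and 22 early, with a median of 0.18 and a range from -2.89 to 3.04. All alpha defensins lie in 1 cluster on chromosome 8, so the family and its location cannot be told apart. The 24 beta defensins of chromosome 8 were late in 18 cases and early in 6, with a median of -1.10. Off chromosome 8, the 16 beta defensins of chromosomes 2 and 14 were all early and the pair on chromosome 1 was late.

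**Figure D1:**
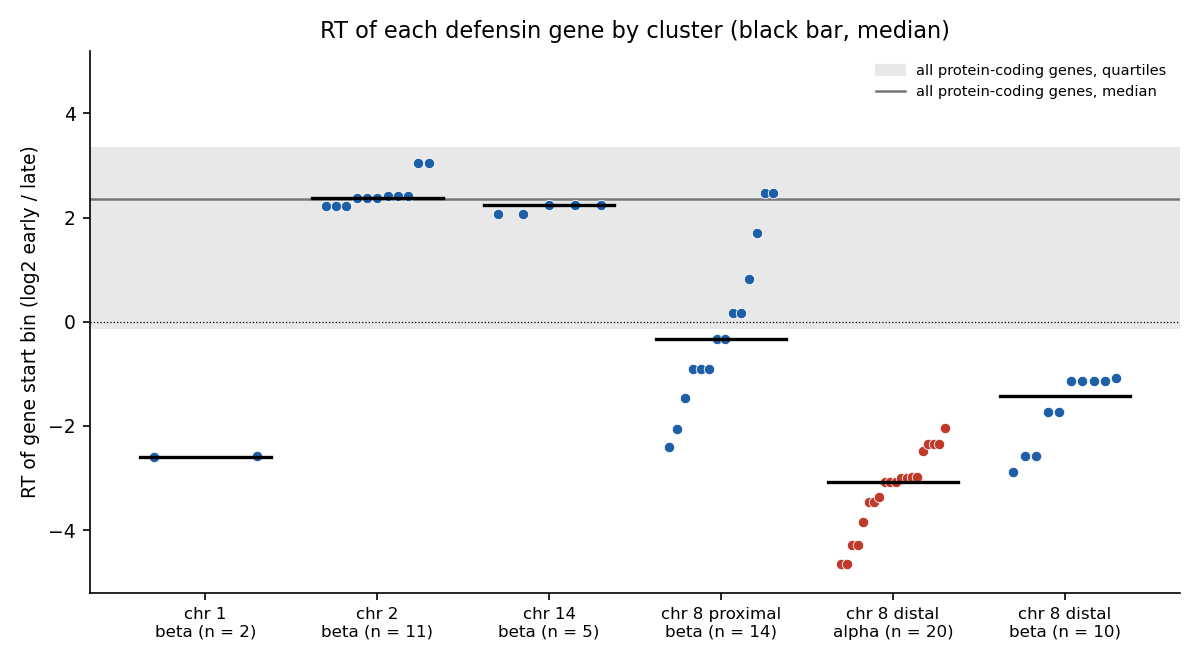
RT (log2 of early over late) of the bin of each defensin gene start, 1 point per gene with a value, grouped by cluster and family, with black bars at group medians and a grey band from the 25th to the 75th percentile of all protein-coding gene starts (-0.13 to 3.33). The genes of chromosomes 2 and 14 lie near the genome median of 2.35, the proximal cluster of chromosome 8 spans RT 2.47 to -2.40, and all alpha defensins lie below RT -2.

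The proximal cluster of chromosome 8 ran down a timing transition, with its members ordered from early to late along the chromosome as far as Defb8. Defb40 and Defb37 start in the bin from 18950001 to 19000000, with RT 2.47. RT was 1.70 at Defb38, 0.83 at Defb39 and 0.18 at Defb12 and Defb34. It was -0.33 at Defb14, the counterpart of human DEFB103, and at Defb4, an inducible epithelial defensin. RT was -0.91 at Defb6, Defb46 and Defb5, and -1.47 at Defb3, another inducible epithelial defensin. The lowest value, -2.40, was at Defb8, and Defb7, the last member, had RT -2.05.

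Between the bins of Defb40 and Defb8, 450 kb apart, RT fell by 4.87 log2, which is 31.2 times the noise SD of a single bin. Each of 9 consecutive bins was later than the one before it. RT crossed 0 at position 19142397 by interpolation, inside Spag11b, a gene for an epididymal protein with a defensin-like domain that is no member by symbol. Its bin had RT 0.18, and Spag11a on the late side had RT -0.33. The steepest stretch, over 5 bins centered on the bin of Defb38, had a slope of -15.5 log2 per Mb, and 1.15% of the autosomal windows of 5 bins were at least as steep. Over 200 kb on the side of Defb40 RT was between 3.18 and 3.34, and over 200 kb beyond Defb7 it was between -1.90 and -1.25. The nearest protein-coding non-members were Xkr5, which starts in the bin of Defb40 and shares its RT of 2.47, and 4930467E23Rik, with RT -0.78. The latter lies 234 kb beyond Defb7, in a bin where 25.3% of the 50-base windows occurred once in the reference genome.

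**Figure D2:**
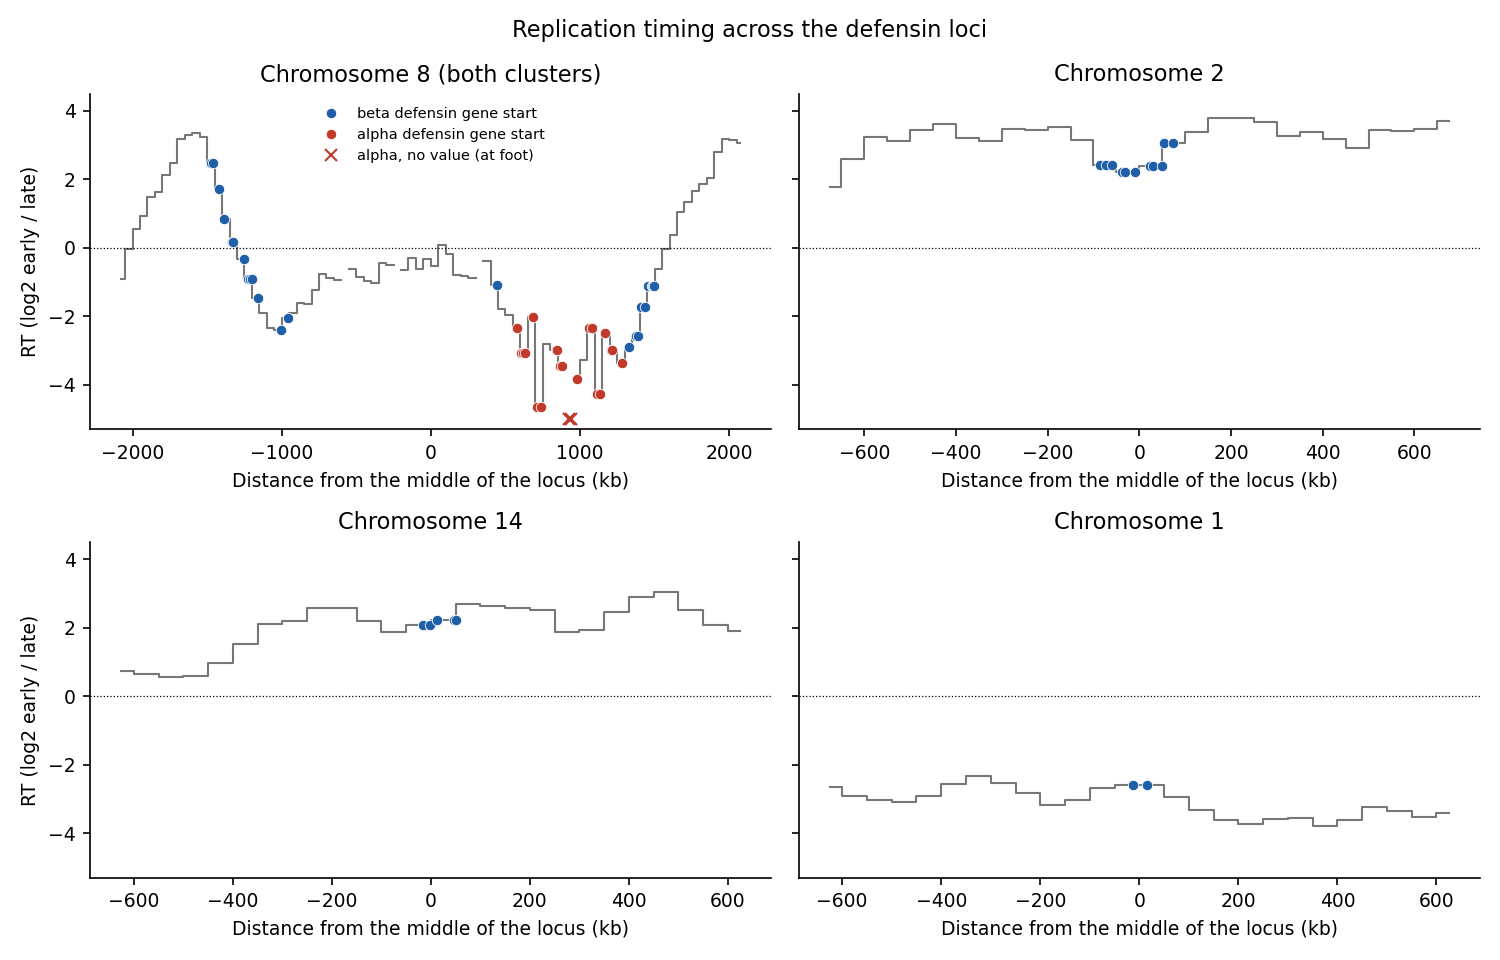
RT (log2 of early over late) in 50 kb bins (grey steps) across the 4 chromosomes that hold defensin genes, against the distance in kb from the middle of each locus, with dots at gene starts (red alpha, blue beta) and crosses at the foot for gene starts in a bin with no value. On chromosome 8 the proximal beta defensins as far as Defb8 follow a fall from RT 2.47 to -2.40, the alpha defensins lie between -2.03 and -4.65, and the last beta defensins follow a rise. The loci of chromosomes 2 and 14 stay above 0 and that of chromosome 1 stays below 0.

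The clusters of chromosome 8 were separated by 1398 kb without a member. Of the 27 bins between them, from 19500001 to 20850000, 3 had no value and consist of assembly gap only, and 11, these 3 included, hold some gap. RT in the bins with a value was between -1.90 and 0.07, with a median of -0.79 and 1 early bin. A median of 15.5% of the 50-base windows in these bins occurred only once in the reference.

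In the distal cluster all 30 gene starts with a value were late. Defb33, which lies apart at the proximal end, had RT -1.08, the highest value of the cluster. At the distal end RT rose from -2.89 at Defb1, the constitutive beta defensin of many epithelia, to -2.59 at Defb50 and at Defb2, an inducible airway defensin. It was -1.72 at Defb10 and Defb9 and -1.13 at Defb11, Defb15, Defb35 and Defb13. The rise between the bins of Defb1 and Defb13, over 150 kb, was 1.76 log2 or 11.2 times the noise SD. RT went on rising for 13 consecutive bins from Defb1. The crossing of 0 lay at 22030197, inside the copper transporter gene Atp7b and beyond the last defensin. The steepest stretch had a slope of 12.4 log2 per Mb, and 5.43% of autosomal windows were at least as steep.

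The alpha defensins lay between these beta defensins and 350 to 750 kb from the nearest early bin. From Defa21 to Defa5 this was the single early bin between the clusters, with RT 0.07, which is within the noise SD of 0. In that bin 11.5% of the 50-base windows occurred once in the reference genome, so these distances are uncertain. The RT values of the alpha defensins overlapped with those of the latest beta defensins, such as Defb1, and reached lower. Defa22 and Defa31 shared the lowest value, -4.65, and only 5 autosomal bins, their own included, were at or below it. In their bin 17.9% of the 50-base windows occurred once in the reference genome. Its RT deviated by -2.22 log2 from the mean of both adjacent bins. Defa37 and Defa28 had RT -4.28 and Defa36 -3.84. RT was -3.46 at Defa27 and Defa29 and -3.36 at Defa24, the cryptdin gene at the distal end of the array. It was -3.07 at Defa23, Defa35 and Defa25. A further 4 genes were close to RT -3, with -3.00 at Defa3 and Defa5 and -2.99 at Defa17 and Defa34. The highest values were -2.48 at Defa26, -2.35 at Defa21, -2.34 at Defa20 and Defa32, and -2.03 at Defa30.

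Defa2 and Defa33 start in the bin from 21350001 to 21400000, which has no RT value. This bin holds no assembly gap. Of all protein-coding genes, 0.36% start in a bin without a value. The 9 protein-coding non-members inside the distal cluster had RT between -4.28 and -1.79. Among them Gm14851, Gm7861 and AY761184 start in bins of members, so their values repeat those of the members. On the outer sides of the cluster the nearest were Gm21119, 278 kb away with RT -0.80, and Fam90a1a, 12 kb away with RT -0.62. The 17 defensin pseudogenes of chromosome 8, which the symbol rule leaves out, were all late, beside 18.7% of its protein-coding gene starts. Their median of -2.99, lowest value of -3.84 and highest value of -0.91 are those of the bins of Defa17, Defa36 and Defb6. The pseudogenes therefore repeat in part the bins of members, in the proximal cluster as well as the distal.

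RT of the alpha bins jumped between neighbors. It went from -2.03 in the bin of Defa30 to -4.65 in the next bin, that of Defa22, a step of 2.61 log2 or 16.7 times the noise SD. From the bin of Defa20 to the next, that of Defa37, RT fell by 1.94 log2. The noise SD comes from autosomal stretches of nearly constant RT, and the measurement scatter of the alpha bins themselves is unknown. In the bins of Defa30 and Defa22, 29.9% and 17.9% of the 50-base windows occurred once in the reference genome. Of the 10 alpha bins with a value in both neighbors, 6 deviated from the mean of those neighbors by more than 3 times the noise SD (0.47 log2), compared with 0 of 22 beta bins and 1.78% of all autosomal bins. The median absolute deviation from the neighbor mean was 1.02 in the alpha bins and 0.091 in the beta bins.

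The alpha bins also differed from the beta bins in how much of their sequence is unique. In the 13 alpha bins a median of 17.9% of the 50-base windows occurred once in the reference genome, with a range from 8.59% to 54.6%. In the 22 beta bins the median was 91.3%, with a range from 60.9% to 98.5%. All 6 bins with large deviations had under 50% unique windows, but so did 9 of the 10 alpha bins for which a deviation could be taken. The bin of Defa2 and Defa33, the one without a value, had 10.5%. Defa21 and Defa22, whose upstream windows are identical, had RT -2.35 and -4.65. Defb3 and Defb8, which also share their window, start in bins with 87.6% and 91.6% unique windows and had RT -1.47 and -2.40. The part of low uniqueness in the uneven RT of the alpha bins was not tested.

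Values from bins with more unique sequence bound the alpha array on both sides. Defa24 lies in the only alpha bin above 50% unique windows, at 54.6%, and had RT -3.36. The next bin, that of Defb1, had 91.1% and RT -2.89. On the proximal side the bins from 20900001 to 20950000 and from 20950001 to 21000000, which hold no member, had 82.9% and 74.95% and RT -1.79 and -1.95. Of the 64 members, 43 lie in bins with at least 50% unique windows, 1 of them an alpha defensin. Among these 43, 21 were late, or 48.8% (exact binomial 95% interval 33.3% to 64.5%), and the median RT was 0.18. The 43 starts lie in 23 bins, and the interval covers the counting of genes only and treats genes that share bins as separate. The late share of all protein-coding gene starts, 25.9%, was taken without a limit on uniqueness, so the sets are unlike. The bins left out hold 19 of the 20 alpha defensins with a value. Among the members, low uniqueness and the alpha family can therefore not be told apart. The 27 bins between the clusters of chromosome 8, without a member, had a median of 15.5% unique windows, with a range from 5.43% to 89.96%. Where these bins had a value, RT was between -1.90 and 0.07. For example, the consecutive bins from 20500001 to 20700000 had 7.16% to 11.5% unique windows. Their RT was 0.07, -0.20, -0.80 and -0.81 in order, without steps as large as those named for the alpha bins. How uniqueness bears on RT in either group was not tested.

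**Figure D3:**
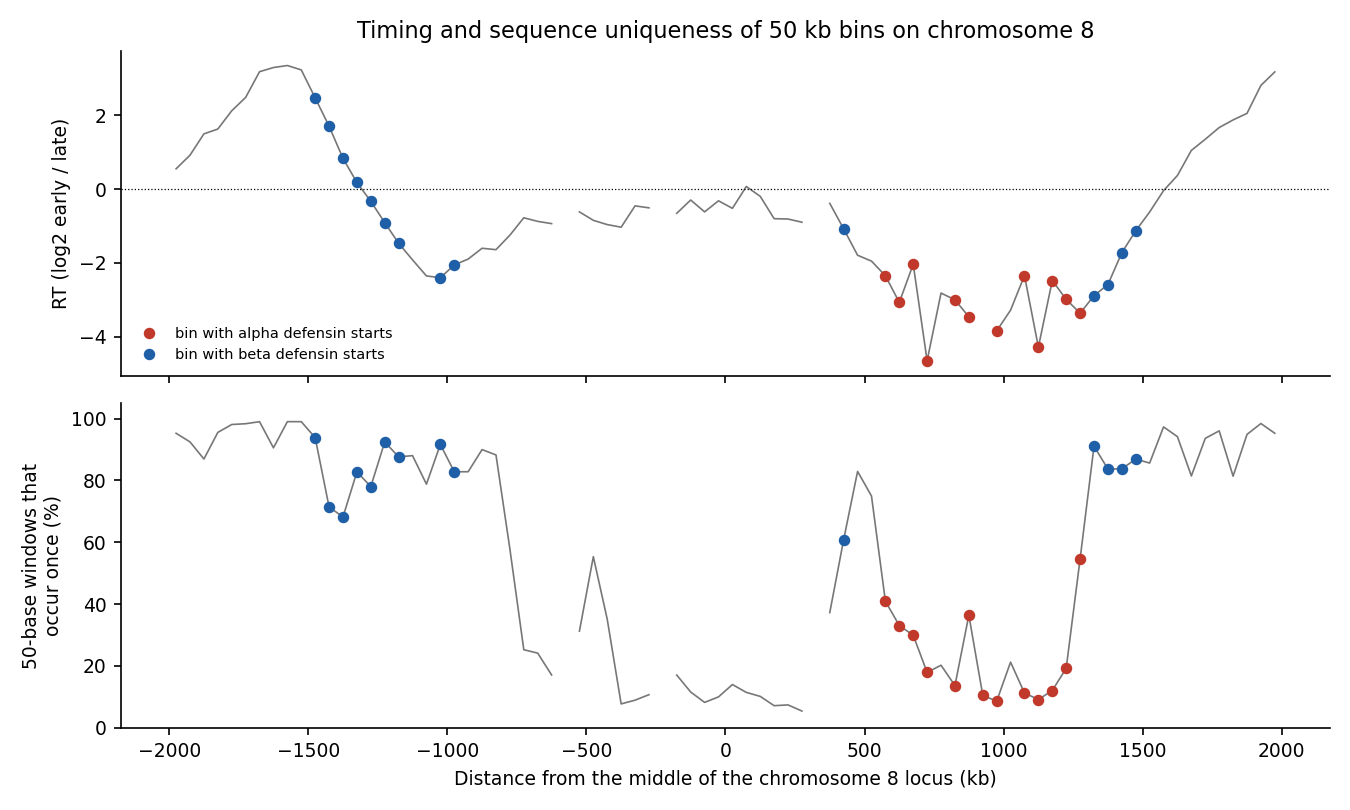
Upper panel, RT (log2 of early over late) of the 50 kb bins on chromosome 8 against the distance in kb from the middle of the locus; lower panel, the percent of 50-base windows of each bin that occur once in the reference genome. Dots mark bins with defensin gene starts (red alpha, blue beta), and lines break where a value is missing. The alpha bins have 8.59% to 54.6% unique windows and the uneven RT, and the beta bins on either side have 60.9% to 93.8% and a smooth course.

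The remaining clusters held beta defensins alone, in sequence that is over 92% unique. The 11 genes of chromosome 2 were early and lay in a shallow dip of an early domain. RT was 2.41 at Defb23, Defb20 and Defb22, of which Defb22 is the counterpart of a human sperm-coating defensin. The lowest value was 2.22, at Defb26, Defb28 and Defb29. RT was 2.38 at Defb21, Defb19 and Defb45, and 3.04 at Defb36 and Defb25. Over 200 kb on either side RT was between 3.16 and 3.53 and between 3.39 and 3.79, so all 4 bins of the cluster were below both flanks. The bin of Defb36 and Defb25, at 3.04, was below the lowest flank bin, at 3.16, by less than the noise SD. From the lowest to the highest bin the cluster spanned 0.83 log2, or 5.30 times the noise SD. Beside it 6820408C15Rik had RT 3.16, and Rem1, which starts in the bin of Defb25, had 3.04.

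On chromosome 14, RT was 2.07 at Defb48 and Defb47 and 2.24 at Defb43, Defb30 and Defb42, a difference of 0.16, close to the noise SD. Defb30 and Defb42 overlap on opposite strands. The flanks had RT from 1.88 to 2.58 and from 2.52 to 2.70, with Wdfy2 at 2.58 and Ctsb, the gene of the lysosomal protease cathepsin B, at 2.64. Each of the 5 members was therefore within 0.3 of the genome median of gene starts, 2.35.

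On chromosome 1, Defb18 had RT -2.58 and Defb41 had RT -2.60, a difference of 0.014, far below the noise SD. The nearest early bin was 950 kb away from Defb18 and 1000 kb from Defb41. The flanks were later, with means of -2.92 and -3.40. The nearest protein-coding non-members were Crisp4, which encodes an epididymal secreted protein, 92 kb away with RT -3.03, and Tfap2d, 838 kb away with RT -3.27. Tfap2d thus lies well outside the flank of 200 kb. Median GC content over the bins of a cluster was 36.5% here, compared with 45.5% on chromosome 2, 43.7% on chromosome 14, and 40.9% and 40.1% in the proximal and distal clusters of chromosome 8.

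Other gene families that are arranged in tandem are set beside the defensins without a test, since their genes also share bins. Of 1128 olfactory receptor gene starts 82.3% were late, with a median RT of -2.13. Of 314 vomeronasal receptor gene starts with a value 88.9% were late, with a median of -2.44, and 13 further genes had no value. Of 53 keratin gene starts 30.2% were late, with a median of 0.89. The alpha defensins had a lower median than these families, and their range from -4.65 to -2.03 lay within or below those of both receptor families, whose lowest values were -4.36 and -4.26. The alpha values come from 12 bins of 1 cluster, 11 of them with under 50% unique windows. Uniqueness was not counted for the bins of the other families. The beta defensins, 47.6% late, lay between the keratins and the receptor families in late share and in median RT.

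**Figure D4:**
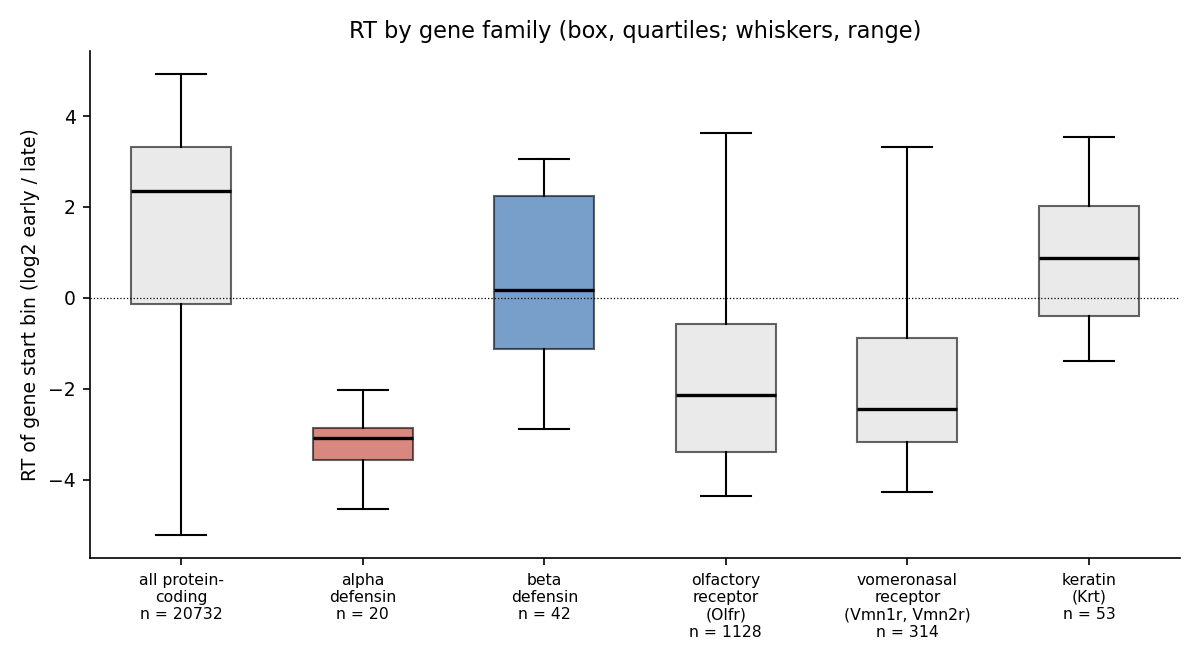
RT (log2 of early over late) of the bin of the gene start for all protein-coding genes and for 5 gene families, with boxes at the quartiles, black lines at the medians and whiskers over the whole range. Medians are 2.35 for all genes, -3.07 for alpha defensins, 0.18 for beta defensins, -2.13 for olfactory receptors, -2.44 for vomeronasal receptors and 0.89 for keratins.

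Other genes of Paneth cells and of antimicrobial defense were looked up from a list of 30, of which 29 had an entry as a protein-coding gene. Of these 29 genes 6 were late, or 20.7%, near the 25.9% of all gene starts, and the median of the 29 was 1.57. The list includes Spag11a, which was late, and Spag11b, which share bins with members of the proximal cluster of chromosome 8. Genes that share a bin, such as Reg3a and Reg3b, were counted separately. The lowest of the list were the C-type lectin genes Reg3g, with RT -3.44, and Reg3a and Reg3b, with RT -3.28. Pglyrp3, a peptidoglycan recognition protein gene, followed with RT -2.04. The highest were Elane, which encodes neutrophil elastase, with RT 3.92, Lcn2 with 3.55, Camp, the cathelicidin gene, with 3.51, and Pglyrp2 with 3.45. Mmp7, whose protease activates the alpha defensin precursors in mouse Paneth cells, had RT 0.74. Ccr6, which encodes a receptor for beta defensins, had RT 1.52.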

How the data were processed

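The 4 libraries were 2 early and 2 late S-phase fractions of F121-9 cells. The authors converted reads of each fraction to RPM and deposited 1 log2 ratio of early over late reads per 50 kb bin, with no values per replicate or read numbers. Per the labels, processing used Bowtie2, SAMtools and bedtools on mm10. How replicates were combined, and any filter, smoothing or scaling, is not given in the sources used here. The paper describes a filter on mapping quality and removal of PCR duplicates for reads of this hybrid line, without saying whether the Repli-seq reads are among them.

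Of 51427 deposited bins the 47928 on chromosomes 1 to 19 were used. A gene start is the 5′ end of the GENCODE vM21 gene, and it took the RT of its bin. Positions in the file are bin starts counted from 0, and are written here from 1. Uniqueness was counted by exact matches of 50-base windows on both strands of 65 reference sequences of the C57BL/6J primary assembly, which may differ in copy number from the hybrid cells. The noise SD came from the median absolute deviation in runs of at least 10 bins with a slope over 5 bins of at most 2.5 log2 per Mb. The members, lists and rules were chosen with earlier results of these data known. Named with values were the lowest and highest bin of each cluster, every early member, every member without a value, the neighboring genes, a fixed list of well-known defensins and, of the Paneth cell and antimicrobial list, the 4 lowest, the 4 highest, Mmp7, Ccr6 and Camp. The other members were added after their values were seen. On a simulated profile of chromosome 8 with a noise SD of 0.15, 0.151 was recovered. Python 3.11.15, numpy 2.4.6, pandas 2.3.3, scipy 1.17.1 and matplotlib 3.10.9 were used.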

Additional observations from a re-analysis of the deposited data

How the results depend on the processing

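No paired analysis was possible because replicates and fractions are merged into 1 value for each bin, and leaving out a replicate could not be done for the same reason. Of 50 alternatives, 34 kept the result within its interval, within the noise SD of 0.16, or within 1.5 times for a count, 15 moved it and 1 changed its sign. The late share of defensin gene starts, 64.5%, was between 48.8% and 72.5%. It was 48.8%, with the median RT changed in sign to 0.18, when only bins with at least 50% unique windows were used, an alternative chosen after seeing the data. That alternative leaves out 19 of the 20 alpha defensins with a value. The median RT, -1.13, was -1.30 with missing bins filled from the nearest bin, -2.04 with each bin counted once, -2.05 with pseudogenes included and -1.47 with positions read as bin ends, which takes the neighboring bin. With positions read as bin ends the mean RT of the clusters was -2.77 on chromosome 1, 2.70 on chromosome 2, -0.60 and -2.53 in the proximal and distal clusters of chromosome 8 and 2.52 on chromosome 14. The mean of the proximal cluster, -0.11 over its members, was -0.57 over all its bins. The mean of the distal cluster, -2.73, was -2.53 after a running median over 5 bins, -3.23 for its alpha members and -1.71 for its beta members, a division added after seeing the data. The late share of all protein-coding gene starts was 20.03% with the limit at the median of the autosomal bins. The cause of these shifts was not tested beyond what each alternative changes by construction. What read depth limits is unknown.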
